A study of Homo sapiens with 7 samples.

Results

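The transcripts that set all 4 Lat-M libraries of 769-P apart from all 3 PA libraries are described here, whatever the size of the change. 769-P is an established line of human clear cell renal cell carcinoma, a kidney cancer whose cells resemble the proximal tubule. Lat-M stands for latent metastatic in the series, and the labels do not expand PA. Libraries 1-1 and 1-2 are called Lat-M1 and libraries 2-1 and 2-2 Lat-M2. What the first number means, and whether libraries of a number came from separate cultures, is not given in the labels. The labels name no genotype, passage, treatment or time for either group and give both the same growth conditions, RPMI-type medium with serum. All 7 libraries of the series were used. Levels are in TPM, transcripts relative to gene length and to the library's total. Of 33117 listed genes, 16724 averaged at least 1 TPM across all libraries and were tested. A gene was described as not overlapping when its 4 Lat-M values lay all above or all below its 3 PA values, a rule that held for 3885 genes.

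Metastatic latency is the state in which tumour cells survive in a distant organ without growing into a lesion. Such cells are known to exchange signals with the matrix, with leukocytes and with endothelium, and many of these signals run through secreted proteins, adhesion receptors and the transcription factor NF-kB. In clear cell renal carcinoma the tumour suppressor VHL is commonly lost, which stabilises the hypoxia-inducible factors. The files were checked against markers of the line. PAX8, a transcription factor of kidney lineage, lay between 65.6 and 87.9 TPM in the 7 libraries, and VIM, the intermediate filament vimentin, between 1981 and 2428 TPM. VHL lay at 0.164 TPM or below in every library. CA9, a target of the hypoxia-inducible factors, was listed at 0 in 5 libraries and at no more than 0.156 TPM in the other two. Marker lists of fibroblasts, endothelium, leukocytes, erythroid cells, neural cells and lung epithelium held 2, 1, 2, 0, 1 and 1 tested genes. The summed leukocyte list, most of it CD68, lay at 47.3 to 50.6 TPM in PA and 19.3 to 45.0 TPM in Lat-M. The summed fibroblast list lay at 5.22 to 5.58 TPM in PA and 6.94 to 24.0 TPM in Lat-M. In bulk RNA, fewer cells of a type and less RNA per cell cannot be told apart.

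The composition of the libraries differed between the groups. Structural RNAs (RMRP, RN7SK, RN7SL1 and RN7SL2) together took 29.5% to 31.8% of all TPM in PA and 18.6% to 27.7% in Lat-M, and protein-coding genes took 55.5% to 57.3% and 58.1% to 67.1%. Each library was therefore divided by a median-ratio scaling factor (0.927 to 0.965 in PA and 1.00 to 1.10 in Lat-M). Without this scaling the tested genes had a median log2 fold change of 0.147, with Lat-M higher. All differences below, and the grouping of genes by fold change, are on log2(TPM + 1) after scaling, while levels are TPM as deposited. Adding 1 understates the change of genes at low levels, most of all near 0. Levels printed for a gene grouped as under 2-fold can therefore lie over 2-fold apart. The read depth behind a value is unknown, since TPM keeps no read total.

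Among the 16724 tested genes, 1911 were higher in all Lat-M libraries (11.4%) and 1974 were lower (11.8%), together 23.2%. Limma, with Benjamini-Hochberg adjustment at 0.05, called 209 genes (1.25%), 114 higher (0.682%) and 95 lower (0.568%), and none of them overlapped. Without scaling the split tilted to 4231 higher and 531 lower without overlap, and to 420 higher and 65 lower called by limma. An exact permutation test of 4 libraries against 3 cannot give a two-sided p below 0.0571, so single genes were tested with limma alone. The nearest genes inside the rule were ECHDC2, whose closest libraries of the 2 groups lay 0.000414 apart on the log2 scale, and WEE1, where they lay 0.000103 apart. The nearest genes outside it, RPS12P5 and RNA5SP342, had a Lat-M library tied with a PA library.

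Most of these changes were moderate. Of the genes that did not overlap, 1337 higher and 1432 lower ones had log2 fold changes under 0.5, and 376 and 381 lay between 0.5 and 1. Only 161 higher and 129 lower genes lay between 1 and 2, and 37 and 32 reached 2 or more. The median size was 0.34 for the higher genes and 0.30 for the lower ones. The space between the nearest libraries of the 2 groups had a median of 0.099 and 0.078, and it reached 1 in 50 higher and 35 lower genes. Of the genes limma called, 61 higher and 66 lower ones changed by less than 2-fold.

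The size of the change was uneven between the Lat-M numbers, which were set against the same PA libraries. Over all tested genes the Lat-M2 libraries correlated with PA at 0.975 to 0.978. Lat-M1 libraries correlated with Lat-M2 at 0.943 to 0.947 and with PA at 0.939 to 0.944. By this measure the Lat-M2 libraries lay closer to PA than to Lat-M1. The change of Lat-M1 from PA was the larger in 1420 of the 1911 higher genes (74.3%) and in 1502 of the 1974 lower genes (76.1%). The median change was 0.42 in Lat-M1 and 0.24 in Lat-M2 among the higher genes, and -0.37 and -0.21 among the lower genes. The 2 changes lay within 0.25 of each other for 58.7% and 59.4% of them, and differed by over 1 for 153 and 161 genes. A change of at least 2-fold in both numbers was found for 83 higher and 54 lower genes, and of at least 1.5-fold for 204 and 165.

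Limma's calls depended on single libraries. The count of 209 became 25, 21 and 17 without PA1, PA2 and PA3, 44 and 41 without Lat-M 1-1 and 1-2, and 111 and 117 without 2-1 and 2-2. Treating libraries of a Lat-M number as correlated repeats (consensus correlation 0.787) left 73 calls. Averaging them left 4, namely TNFAIP6, SPARC and MIR205HG (limma adjusted p = 0.0356 for each) and LTB (0.0401). Of 61 genes called and named by the rules given under processing, 46, 47 and 50 lost the call without PA1, PA2 and PA3, 39 and 40 without Lat-M 1-1 and 1-2, and 20 without 2-1 and 20 without 2-2. The 11 that kept it each time were SPARC, TNFAIP6, LPXN, MAP3K1, LOXL4, PAPPA2 and VIL1, all higher, and MIR205HG, LTB, SGCE and SLC4A4, all lower.

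A small set of genes moved to nearly the same level in Lat-M1 and Lat-M2. Among called genes with at least 2-fold changes in both numbers, 44 higher and 23 lower, the 2 changes lay within 0.25 of each other for 16 and 4. These 20 were picked out after their values were seen, and 10 of them kept their calls without any 1 library. Being called and evenly changed was the condition of the pick. Near-equal levels, small errors and kept calls follow in part from it. SPARC, a matricellular glycoprotein that binds collagen, stood at 0.0851, 0.126 and 0.0368 TPM in PA, 8.44 and 9.93 in Lat-M1, and 10.1 and 8.97 in Lat-M2. All 4 Lat-M libraries lay far above a PA level near 0, and the libraries of the 2 numbers overlapped each other (log2 fold change 3.18 ± 0.10, SE; limma adjusted p = 0.000174). LOXL4, a lysyl oxidase that crosslinks collagen and elastin, stood at 17.1, 19.2 and 18.8 TPM in PA, 46 and 47.4 in Lat-M1, and 49.3 and 43.1 in Lat-M2. PAPPA2, a protease that cleaves binding proteins of the insulin-like growth factors, stood at 8.59, 9.45 and 9.78 TPM in PA, 23.4 and 25.2 in Lat-M1, and 25.5 and 23.2 in Lat-M2. Both genes had changes of almost equal size in the 2 numbers, 1.13 and 1.14 for LOXL4 and 1.14 and 1.16 for PAPPA2 (limma adjusted p = 0.00073 for each).

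DNASE2, the lysosomal nuclease that degrades DNA of engulfed cells, stood at 3.48, 4.08 and 3.98 TPM in PA, 14.7 and 14.6 in Lat-M1, and 17.3 and 15.1 in Lat-M2 (1.62 ± 0.088; limma adjusted p = 0.000939). INPP4B, a phosphatase of phosphoinositides, stood at 6.95, 6.33 and 7.17 TPM in PA, 16.8 and 17.2 in Lat-M1, and 19.8 and 17.7 in Lat-M2 (1.12 ± 0.077; limma adjusted p = 0.00253). VIL1, the actin-bundling protein villin of the brush border, stood at 4.8, 4.59 and 4.03 TPM in PA, 12.3 and 12.5 in Lat-M1, and 12.3 and 10.9 in Lat-M2 (1.11 ± 0.087; limma adjusted p = 0.00449). In these 3 genes the TPM of the lowest Lat-M library was more than 2-fold that of the highest PA library. The zinc finger genes ZNF836 and ZNF736 rose by 2.13 and 1.82 on the log2 scale (limma adjusted p = 0.00148 and 0.00387), from PA levels of at most 0.103 and 0.463 TPM to Lat-M levels of at least 3.54 and 3.85 TPM. Among the even falls, SERPINA1, the protease inhibitor alpha-1-antitrypsin, stood at 25.7, 25.7 and 25.5 TPM in PA, 12.3 and 12.6 in Lat-M1, and 13.9 and 12.7 in Lat-M2 (-1.10 ± 0.061; limma adjusted p = 0.000945). LTB, the cytokine lymphotoxin beta, stood at 10.0, 11.8 and 12.9 TPM in PA, 1.96 and 2.11 in Lat-M1, and 1.6 and 2.52 in Lat-M2 (-2.18 ± 0.14; limma adjusted p = 0.00211). Every Lat-M library lay below every PA library in both genes, at close to the same level in Lat-M1 and Lat-M2.

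The 10 largest rises, ranked by the space between the nearest libraries, began with PTRF, the coat protein cavin-1 of caveolae. PTRF stood at 0.0268, 0.182 and 0.279 TPM in PA, 63.9 and 65.2 in Lat-M1, and 15.5 and 12.9 in Lat-M2, and the log2 fold change was 4.68 ± 0.61 (limma adjusted p = 0.0264). TNFAIP6, a secreted protein that binds hyaluronan, stood at 2.02, 2.32 and 2.25 TPM in PA, 41.8 and 44.2 in Lat-M1, and 31.3 and 26.7 in Lat-M2 (3.37 ± 0.17; limma adjusted p = 0.00073). PTRF was several times higher in Lat-M1 than in Lat-M2, while TNFAIP6 differed less between them, and in both genes PA stood far below. VCAM1, an adhesion molecule that binds integrins of leukocytes, stood at 3.75, 4.07 and 3.4 TPM in PA, 76 and 77.2 in Lat-M1, and 41.8 and 36.6 in Lat-M2 (3.41 ± 0.28; limma adjusted p = 0.00561). SGPP2, which removes the phosphate of sphingosine-1-phosphate, stood at 1.08, 1.33 and 1.44 TPM in PA, 56.4 and 59.8 in Lat-M1, and 21.7 and 17.6 in Lat-M2 (3.81 ± 0.44; limma adjusted p = 0.0175). In VCAM1 and SGPP2 the order was PA, Lat-M2 and Lat-M1, with no overlap between them. The call was lost for PTRF and SGPP2 when any 1 PA library or either Lat-M1 library was left out (limma adjusted p up to 0.155 and 0.132), and VCAM1 when PA3 was left out (adjusted p up to 0.0562).

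**Figure D1:**
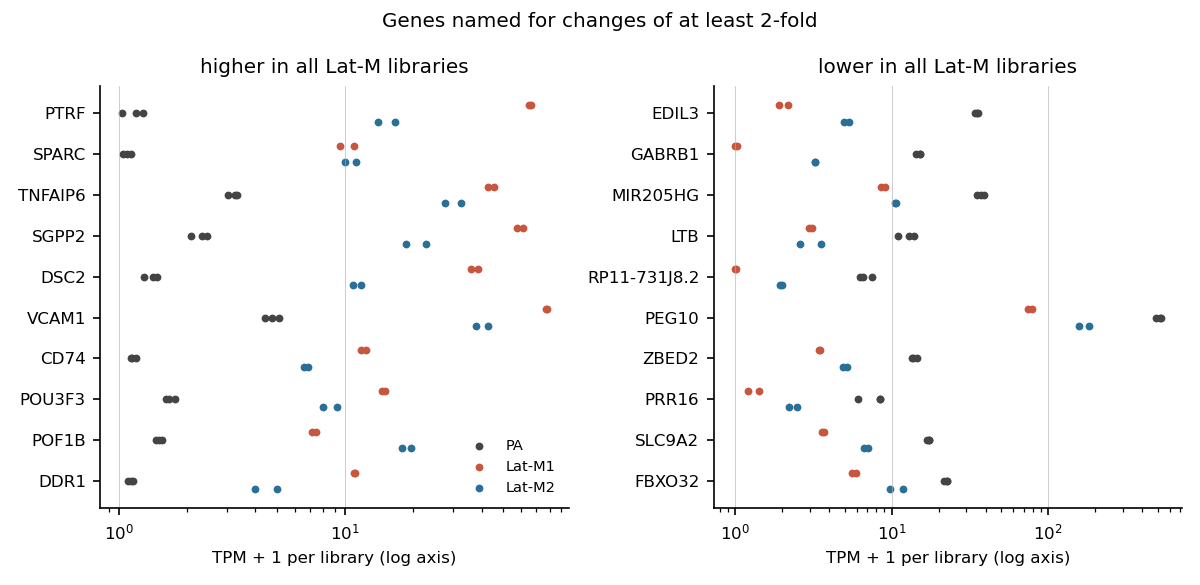
TPM + 1 per library on a log axis for the 10 rises and 10 falls with the widest space between the groups among limma-called changes of at least 2-fold. Grey points are the 3 PA libraries, red points the 2 Lat-M1 libraries and blue points the 2 Lat-M2 libraries, and the grey points lie apart from all coloured points in each of the 20 genes.

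DSC2, a cadherin of desmosomes, stood at 0.412, 0.465 and 0.289 TPM in PA, 34.9 and 37.5 in Lat-M1, and 10.7 and 9.84 in Lat-M2 (3.78 ± 0.50; limma adjusted p = 0.0264). CD74, the invariant chain that accompanies MHC class II proteins, stood at 0.129, 0.191 and 0.14 TPM in PA, 10.7 and 11.3 in Lat-M1, and 5.57 and 5.84 in Lat-M2 (2.88 ± 0.26; limma adjusted p = 0.00776). POU3F3, a transcription factor of the developing nephron and brain, stood at 0.663, 0.772 and 0.609 TPM in PA, 14 and 13.5 in Lat-M1, and 8.18 and 6.97 in Lat-M2 (2.63 ± 0.24; limma adjusted p = 0.00884). All 3 were higher in Lat-M1 than in Lat-M2, and PA stood below 1 TPM. POF1B, an actin-binding protein of epithelial junctions, had the reverse order, with 0.459, 0.497 and 0.552 TPM in PA, 6.43 and 6.15 in Lat-M1, and 18.4 and 16.8 in Lat-M2 (2.85 ± 0.41; limma adjusted p = 0.0318). DDR1, a receptor tyrosine kinase activated by collagen, stood at 0.124, 0.0954 and 0.146 TPM in PA, 10.0 and 9.97 in Lat-M1, and 3.97 and 2.99 in Lat-M2 (2.57 ± 0.39; limma adjusted p = 0.037). DDR1 was higher in Lat-M1 than in Lat-M2. Among these 5, the call was lost for CD74 and POU3F3 when any 1 PA library was left out (limma adjusted p up to 0.0668 and 0.0765), DSC2 when any 1 PA library or either Lat-M1 library was left out (adjusted p up to 0.15), POF1B when any 1 of the 7 libraries was left out (adjusted p up to 0.168), and DDR1 when any 1 PA library, either Lat-M1 library or Lat-M 2-1 was left out (adjusted p up to 0.188).

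The 250 bases before the RefSeq start of VCAM1, SGPP2, TNFAIP6 and LTB are shown because these genes respond to inflammatory signals and their shared changes were among the largest, 3 up and 1 down. They were picked after their letters were searched for GGNNTTTCC, a core of NF-kB sites, and TGACTCA, a core of AP-1 sites, on both strands. Capitals mark the matches. Coordinates are of GRCh38.p14, with VCAM1 at chr1:100719492-100719741, SGPP2 at chr2:222423738-222423987 and TNFAIP6 at chr2:151357342-151357591 on the plus strand and LTB at chr6:31582426-31582675 on the minus strand, and each run reads 5′ to 3′ along its gene.
VCAM1: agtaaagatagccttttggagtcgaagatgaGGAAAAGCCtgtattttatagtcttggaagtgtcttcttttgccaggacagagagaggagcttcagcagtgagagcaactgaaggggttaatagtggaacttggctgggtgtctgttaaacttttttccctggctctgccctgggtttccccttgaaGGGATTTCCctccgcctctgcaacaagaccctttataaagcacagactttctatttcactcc
SGPP2: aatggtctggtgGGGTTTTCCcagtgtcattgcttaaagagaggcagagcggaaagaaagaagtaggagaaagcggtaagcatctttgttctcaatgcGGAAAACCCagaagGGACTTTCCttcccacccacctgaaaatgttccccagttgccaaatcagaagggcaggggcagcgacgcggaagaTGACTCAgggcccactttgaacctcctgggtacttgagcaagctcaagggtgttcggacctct
TNFAIP6: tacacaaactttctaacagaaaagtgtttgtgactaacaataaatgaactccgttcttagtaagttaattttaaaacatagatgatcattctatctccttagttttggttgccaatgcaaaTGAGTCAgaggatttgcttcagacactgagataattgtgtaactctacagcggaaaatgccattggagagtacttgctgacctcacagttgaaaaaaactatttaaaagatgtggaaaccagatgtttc
LTB: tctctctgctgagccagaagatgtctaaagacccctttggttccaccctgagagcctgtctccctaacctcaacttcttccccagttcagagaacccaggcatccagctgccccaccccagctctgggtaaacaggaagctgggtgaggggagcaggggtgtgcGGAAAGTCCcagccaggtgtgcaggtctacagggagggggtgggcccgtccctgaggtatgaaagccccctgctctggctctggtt

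GGNNTTTCC was found in VCAM1 at 62 and 219 bases before the start, in SGPP2 at 138, 152 and 238 bases, and in LTB at 86 bases. TGACTCA was found in SGPP2 at 63 bases and in TNFAIP6 at 129 bases. The match in LTB stood before a gene that fell, so the letters were present with both directions of change. Shares over many genes were counted with 50 bases after the start included, unlike in the promoters shown. Across genes with a promoter in the RefSeq table, 7.39% of 1367 higher genes, 6.59% of 1412 lower genes and 6.85% of all 9982 tested genes held GGNNTTTCC. TGACTCA was held by 3.22%, 3.26% and 3.03%. Among genes called by limma, GGNNTTTCC was held by 7 of 80 higher (8.75%) and 7 of 62 lower ones (11.3%), and TGACTCA by 7 of 80 (8.75%) and 1 of 62 (1.61%). The shares of the genes that did not overlap thus lay close to those of all tested genes. Those of the called genes lay further off and rested on at most 7 genes each.

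The 10 largest falls began with EDIL3, a secreted integrin ligand, at 34.2, 33.1 and 34.6 TPM in PA, 0.919 and 1.16 in Lat-M1, and 4.38 and 3.93 in Lat-M2 (-3.57 ± 0.39; limma adjusted p = 0.0154). GABRB1, a subunit of the GABA receptor, stood at 14.1, 13.2 and 14.3 TPM in PA, 0.03 and 0 in Lat-M1, and 2.26 and 2.23 in Lat-M2 (-3.14 ± 0.48; limma adjusted p = 0.0385). Both were lower in Lat-M1 than in Lat-M2, and GABRB1 was close to 0 in Lat-M1. MIR205HG, the host transcript of miR-205, stood at 34.3, 36.3 and 37.7 TPM in PA, 7.58 and 8.13 in Lat-M1, and 9.52 and 9.72 in Lat-M2 (-2.09 ± 0.10; limma adjusted p = 0.00073). PEG10, an imprinted gene derived from a retrotransposon, stood at 520.1, 491 and 523 TPM in PA, 72.9 and 78 in Lat-M1, and 182 and 157 in Lat-M2 (-2.33 ± 0.35; limma adjusted p = 0.0359). MIR205HG stood at nearly one level in all Lat-M libraries, while PEG10 was again lowest in Lat-M1. Calls ended for EDIL3 when any 1 PA library was left out (limma adjusted p up to 0.127), GABRB1 when any 1 PA library, either Lat-M1 library or Lat-M 2-1 was left out (adjusted p up to 0.194), and PEG10 when any 1 PA library or either Lat-M1 library was left out (adjusted p up to 0.188).

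LTB also belonged to these 10 falls, and the others were deeper in Lat-M1. ZBED2, a zinc finger transcription factor, stood at 13.6, 12.5 and 12.7 TPM in PA, 2.44 and 2.5 in Lat-M1, and 4.22 and 3.92 in Lat-M2 (-1.87 ± 0.18; limma adjusted p = 0.00988). SLC9A2, an exchanger of sodium and protons, stood at 16.2, 16.4 and 15.9 TPM in PA, 2.71 and 2.6 in Lat-M1, and 6.02 and 5.64 in Lat-M2 (-1.93 ± 0.27; limma adjusted p = 0.0316). FBXO32, the F-box protein atrogin-1 of a ubiquitin ligase, stood at 20.5, 21.5 and 21.6 TPM in PA, 4.62 and 4.91 in Lat-M1, and 10.8 and 8.8 in Lat-M2 (-1.65 ± 0.27; limma adjusted p = 0.0468). In each of these the 3 PA libraries lay close together, and the upper Lat-M library was a Lat-M2 library. PRR16 fell by 2.22 and the non-coding RP11-731J8.2 fell by 2.36 on the log2 scale (limma adjusted p = 0.0235 and 0.0235), from PA levels of 5.07 to 7.48 and 5.28 to 6.46 TPM. Calls did not hold for PRR16, RP11-731J8.2 and SLC9A2 when any 1 PA library or either Lat-M1 library was left out (limma adjusted p up to 0.15, 0.15 and 0.171), FBXO32 when any 1 PA library, either Lat-M1 library or Lat-M 2-2 was left out (adjusted p up to 0.205), and ZBED2 when any 1 PA library was left out (adjusted p up to 0.0925).

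Several called rises of under 2-fold on the log2(TPM + 1) scale had much the same level in the 2 Lat-M numbers. LPXN, the focal adhesion protein leupaxin, stood at 6.46, 6.42 and 6.81 TPM in PA, 14 and 17 in Lat-M1, and 14.7 and 15 in Lat-M2 (0.94 ± 0.072; limma adjusted p = 0.004). MAP3K1, a kinase upstream of JNK and ERK signalling, stood at 44.4, 43.5 and 46.5 TPM in PA, 83.6 and 83.6 in Lat-M1, and 89.1 and 76.9 in Lat-M2 (0.72 ± 0.05; limma adjusted p = 0.00265). In the deposited TPM of MAP3K1 the highest and the lowest Lat-M library were both Lat-M2 libraries. The numbers thus overlapped each other there, and neither overlapped PA. PAQR5, a membrane progestin receptor, stood at 5.96, 5.4 and 6.29 TPM in PA, 12.6 and 14 in Lat-M1, and 14.1 and 11.6 in Lat-M2 (0.88 ± 0.075; limma adjusted p = 0.00591). ACSL1, a long-chain acyl-CoA synthetase, stood at 9.68, 8.89 and 10.1 TPM in PA, 17.9 and 18.6 in Lat-M1, and 18.8 and 17.1 in Lat-M2 (0.70 ± 0.059; limma adjusted p = 0.00561). TEAD2, a DNA-binding partner of YAP, stood at 6.07, 6.34 and 7.07 TPM in PA, 16.1 and 16.7 in Lat-M1, and 12.4 and 15.3 in Lat-M2 (0.95 ± 0.12; limma adjusted p = 0.0235). PA lay below all Lat-M libraries in these 3, and the Lat-M2-1 library was the lowest Lat-M library in TEAD2. Limma no longer called PAQR5 and ACSL1 when PA3 was left out (limma adjusted p up to 0.0562 and 0.0562), and TEAD2 when any 1 PA library, either Lat-M1 library or Lat-M 2-2 was left out (adjusted p up to 0.15).

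The remaining moderate rises included GJB2, the gap junction protein connexin 26, at 3.85, 3.8 and 3.88 TPM in PA, 10.1 and 10.9 in Lat-M1, and 7.59 and 7.29 in Lat-M2 (0.88 ± 0.14; limma adjusted p = 0.0419). Here Lat-M1 stood above Lat-M2, with PA lowest. EFHD1, a calcium-binding protein of mitochondria, stood at 6.13, 6.79 and 7.37 TPM in PA, 13.5 and 13.2 in Lat-M1, and 13.6 and 12.9 in Lat-M2 (0.74 ± 0.073; limma adjusted p = 0.0104). CADPS2, a protein of vesicle secretion, and NHSL1, of the Nance-Horan syndrome family, rose by 0.72 and 0.83 on the log2 scale (limma adjusted p = 0.0143 and 0.00944). In EFHD1, CADPS2 and NHSL1 the lowest Lat-M library was over 1.5-fold above the highest PA library. A Y RNA gene completed the 10 (0.75; limma adjusted p = 0.0264), and it is uncertain because near-identical copies share reads. The calls ended for CADPS2 and Y_RNA when any 1 PA library or either Lat-M1 library was left out (limma adjusted p up to 0.107 and 0.153), EFHD1 and NHSL1 when any 1 PA library was left out (adjusted p up to 0.0864 and 0.083), and GJB2 when any 1 of the 7 libraries was left out (adjusted p up to 0.197).

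**Figure D2:**
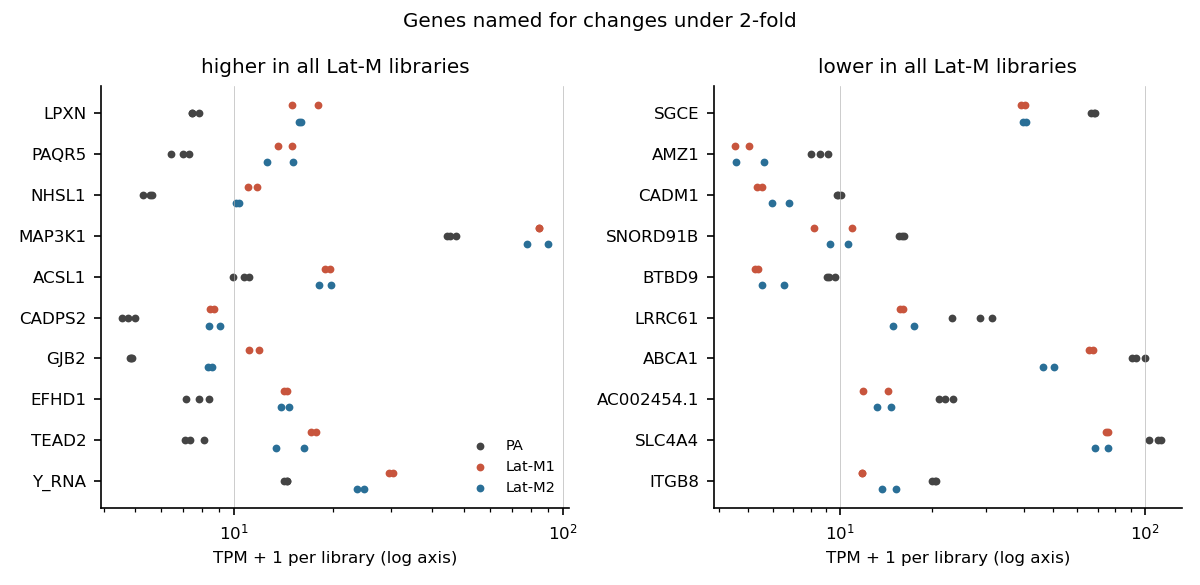
TPM + 1 per library on a log axis for 10 rises and 10 falls with the widest space between the groups among limma-called genes. All 20 changed by under 2-fold on the scaled log2(TPM + 1) values. Grey points are PA, red points Lat-M1 and blue points Lat-M2, and the 2 colours lie close together or mixed in most of the 20 genes while the grey points lie apart.

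Among moderate falls, SGCE, the epsilon subunit of the sarcoglycan complex, stood at 67.5, 65.6 and 66.9 TPM in PA, 38.3 and 39.5 in Lat-M1, and 38.7 and 39.8 in Lat-M2 (-0.92 ± 0.056; limma adjusted p = 0.00148). SGCE is the imprinted neighbour of PEG10, and it lay at one level in all 4 Lat-M libraries, unlike PEG10. SLC4A4, which carries sodium and bicarbonate across the basolateral membrane of the proximal tubule, stood at 112, 102 and 109.8 TPM in PA, 73.7 and 75 in Lat-M1, and 74.8 and 67.4 in Lat-M2 (-0.73 ± 0.053; limma adjusted p = 0.00326). ABCA1, the exporter of cholesterol to apolipoproteins, stood at 92.8, 90.1 and 98.8 TPM in PA, 64.5 and 66.9 in Lat-M1, and 49.2 and 45.3 in Lat-M2 (-0.91 ± 0.14; limma adjusted p = 0.0364). ABCA1 had the larger fall in Lat-M2. CADM1, an adhesion molecule of the immunoglobulin family, stood at 9.08, 8.78 and 8.83 TPM in PA, 4.33 and 4.52 in Lat-M1, and 5.78 and 4.97 in Lat-M2 (-0.90 ± 0.10; limma adjusted p = 0.0164). ITGB8, the integrin subunit that activates latent TGF-beta, stood at 19, 19.5 and 19.7 TPM in PA, 10.8 and 10.8 in Lat-M1, and 14.3 and 12.7 in Lat-M2 (-0.80 ± 0.11; limma adjusted p = 0.0264). Both were lower in Lat-M1 than in Lat-M2, and PA stood above. Of these genes, the call was lost for CADM1 and ITGB8 when any 1 PA library or either Lat-M1 library was left out (limma adjusted p up to 0.13 and 0.154), and ABCA1 when any 1 of the 7 libraries was left out (adjusted p up to 0.189).

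The rest of the moderate falls were AMZ1, a metalloprotease, BTBD9, a BTB domain protein, LRRC61, AC002454.1 and SNORD91B. Their log2 fold changes were -0.94, -0.86, -0.94, -0.87 and -0.87. Their limma adjusted p-values were 0.0135, 0.0164, 0.014, 0.0143 and 0.0377. SNORD91B, a small nucleolar RNA inside a host gene, is uncertain because reads of the host can fall on it. All 40 genes of these 4 groups kept their separation in every alternative that allowed the count, and all 40 were also called without scaling. They had been picked for wide separation, and leaving out a library can hardly undo it, so the first outcome was close to fixed in advance. Limma lost the calls of AMZ1 and AC002454.1 when any 1 PA library or Lat-M 1-2 was left out (limma adjusted p up to 0.112 and 0.113), BTBD9 when any 1 PA library or either Lat-M1 library was left out (adjusted p up to 0.13), LRRC61 when PA2, PA3 or either Lat-M1 library was left out (adjusted p up to 0.107), and SNORD91B when any 1 of the 7 libraries was left out (adjusted p up to 0.194).

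Sets of related genes were then counted against the shares of all tested genes (11.4% higher, 11.8% lower; median log2 fold change 7.87e-05). Tested protein-coding genes alone had somewhat larger shares, 13.9% higher and 14% lower. Of 15 tested cadherins and desmosome proteins, 9 were higher in all Lat-M libraries and 2 lower (10 and none without scaling), with a median of 0.35, and limma called DSC2 and CDH4. By number, the median was 0.52 in Lat-M1 and 0.17 in Lat-M2. CDH4, R-cadherin, stood at 0.657, 0.945 and 0.873 TPM in PA, 9.57 and 10.1 in Lat-M1, and 4.32 and 4.1 in Lat-M2 (1.94 ± 0.32; limma adjusted p = 0.0445). JUP, the plakoglobin of desmosomes and adherens junctions, stood at 12.2, 15.7 and 16 TPM in PA, 108 and 119 in Lat-M1, and 35.5 and 29.6 in Lat-M2, and PKP3, a plakophilin, at 6.3, 8.64 and 7.63 TPM in PA, 12.2 and 12.9 in Lat-M1, and 14.8 and 14.6 in Lat-M2. Neither passed limma's threshold (adjusted p = 0.147 and 0.0668), and both were named because their libraries did not overlap PA. DSG2, CTNNA1, CTNND1, DSP and PKP2 were the other members above PA, and CDH6 and CTNNB1 lay below it. Tight junction and polarity genes went the other way in their count, with 1 of 15 higher and 4 lower, and 1 and 2 without scaling. The median was -0.19, and -0.027 without scaling, and it was -0.61 in Lat-M1 and -0.0045 in Lat-M2. OCLN, CLDN2 and CLDN4 were among the lower ones. The calls in this list were lost for DSC2 when any 1 PA library or either Lat-M1 library was left out (limma adjusted p up to 0.15), and CDH4 when any 1 of the 7 libraries was left out (adjusted p up to 0.205).

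Matricellular and elastic matrix proteins had 9 of 21 members higher and 4 lower (10 and 1 without scaling; median 0.41). Limma called SPARC and LOXL4 among the higher ones and EDIL3 among the lower ones. FSTL1, a follistatin-like glycoprotein, stood at 4.57, 4.17 and 4.21 TPM in PA, 47.3 and 49.2 in Lat-M1, and 16.1 and 15.2 in Lat-M2 (limma adjusted p = 0.0709). HSPG2, the basement membrane proteoglycan perlecan, stood at 5.23, 8.17 and 7.69 TPM in PA, 17.2 and 19.5 in Lat-M1, and 15.1 and 13.1 in Lat-M2 (limma adjusted p = 0.0532). Neither passed the threshold, and both were named from members with every Lat-M library above PA. Of 18 metalloproteinases and their inhibitors, 4 were higher and 5 lower (8 and 2 without scaling). MMP1, the interstitial collagenase, stood at 533, 501 and 529 TPM in PA, 15.5 and 17.4 in Lat-M1, and 95.4 and 86 in Lat-M2 (-3.87; limma adjusted p = 0.0597), and TIMP3, an inhibitor of metalloproteinases, at 1.14, 1.02 and 0.888 TPM in PA, 22.1 and 22.5 in Lat-M1, and 7.25 and 5.92 in Lat-M2 (2.60; limma adjusted p = 0.0597). MMP1 and TIMP3 were named for wide separation of their groups, 2.61 and 1.63 on the log2 scale, and neither passed the threshold. The single fibroblast marker without overlap, COL1A1, is also a matrix gene, at 1.04, 1.37 and 1.16 TPM in PA, 19.2 and 20.6 in Lat-M1, and 3.72 and 2.91 in Lat-M2, and its part in the matrix counts was not tested. Limma lost the call of EDIL3 when any 1 PA library was left out (limma adjusted p up to 0.127).

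Of 8 caveolar genes, PTRF was higher and SDPR, PACSIN2, CAV2 and CAV1 were lower in all Lat-M libraries, while without scaling 2 members were higher and 1 lower. SDPR, the coat protein cavin-2, stood at 91.2, 93.4 and 96.2 TPM in PA, 8.14 and 8.01 in Lat-M1, and 31.3 and 32 in Lat-M2 (-2.62; limma adjusted p = 0.0804). CAV1, the main membrane protein of caveolae, stood at 617, 597 and 612 TPM in PA, 613 and 638 in Lat-M1, and 579 and 531 in Lat-M2 and thus lay below every PA library only after scaling (log2 fold change -0.21).

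Contractile and smooth muscle genes had 9 of 23 members higher and 3 lower (15 and 1 without scaling; median 0.56), none of them called by limma, where the change in Lat-M1 was far larger than in Lat-M2. TAGLN, the smooth muscle protein transgelin, stood at 6.98, 5.86 and 7.44 TPM in PA, 402 and 440.1 in Lat-M1, and 19.2 and 18.8 in Lat-M2 (limma adjusted p = 0.228). MYL9, a regulatory myosin light chain, stood at 9.43, 10.2 and 11.3 TPM in PA, 285 and 309.7 in Lat-M1, and 29.7 and 26.2 in Lat-M2 (limma adjusted p = 0.196). The median change of the list was 0.98 in Lat-M1 and 0.06 in Lat-M2. ACTA2, TAGLN2, TPM1, TPM2, CALD1, ZYX and PDLIM7 were the other members above PA.

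Secreted immune signals had more members above PA than below. Of 18 chemokines and cytokines, 8 were higher and 1, LTB, was lower (median 0.44, with 0.76 in Lat-M1 and 0.11 in Lat-M2). CXCL16, a membrane-bound chemokine, stood at 0.11, 0.218 and 0.286 TPM in PA, 1.79 and 2.03 in Lat-M1, and 4.44 and 2.8 in Lat-M2 and was the only rise limma called (1.53 ± 0.24; adjusted p = 0.0423). CCL2, a chemokine for monocytes, stood at 2.53, 3.14 and 3.28 TPM in PA, 35.2 and 42.5 in Lat-M1, and 9.96 and 10.3 in Lat-M2, and TNF at 1.72, 2.49 and 2.71 TPM in PA, 38.5 and 40.1 in Lat-M1, and 7.58 and 8.19 in Lat-M2 (limma adjusted p = 0.105 and 0.13). IL8, the neutrophil chemokine, stood at 22.3, 21.2 and 23.1 TPM in PA, 168 and 183 in Lat-M1, and 45.3 and 42.9 in Lat-M2 (limma adjusted p = 0.178). These 3 were higher in Lat-M1 than in Lat-M2 and lowest in PA. Of 24 NF-kB subunits, inhibitors and targets, 6 were higher and none lower (11 and none without scaling; median 0.42), with VCAM1 the member called. TNFAIP2, a target of TNF signalling, stood at 31.1, 37.6 and 35.7 TPM in PA, 73.1 and 76.9 in Lat-M1, and 54.4 and 47.9 in Lat-M2, and BCL3, a nuclear partner of NF-kB, at 1.81, 2.82 and 3.24 TPM in PA, 4.5 and 4.71 in Lat-M1, and 4.22 and 4.64 in Lat-M2 (limma adjusted p = 0.118 and 0.17). The list's median change was 0.67 in Lat-M1 and -0.02 in Lat-M2, so the count of 6 described few of its members in Lat-M2. Calls in this group were lost for CXCL16 when any 1 of the 7 libraries was left out (limma adjusted p up to 0.204), and VCAM1 when PA3 was left out (adjusted p up to 0.0562).

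MHC class I and peptide-loading genes had 8 of 22 members higher and 1 lower (12 and none without scaling; median 0.38), and limma called none. Their median was 0.68 in Lat-M1 and 0.07 in Lat-M2. HLA-F stood at 2.24, 2.9 and 2.88 TPM in PA, 5.39 and 5.46 in Lat-M1, and 4.43 and 4.21 in Lat-M2, and NLRC5, the activator of MHC class I genes, at 1.51, 1.69 and 1.92 TPM in PA, 7.04 and 7.82 in Lat-M1, and 2.58 and 2.71 in Lat-M2 (limma adjusted p = 0.101 and 0.243). HLA genes share sequence, so their values are uncertain. Complement genes had 5 of 9 higher and 1 lower (median 0.59). CD55, which protects cells from complement, rose from 4.41, 3.95 and 3.91 TPM in PA to 7.34 and 7.35 in Lat-M1 and 7.78 and 7.34 in Lat-M2 (0.59 ± 0.085; limma adjusted p = 0.0316). C1S, C3, CFB and CLU were the other members above PA, and C5 lay below. Of 30 interferon response genes, 8 were higher and 3 lower (10 and 1 without scaling; median 0.09, with 0.32 in Lat-M1 and -0.10 in Lat-M2), none called. The 2 tested leukocyte markers lay on opposite sides of PA, with CD68 at 45.6, 48.2 and 46.2 TPM in PA, 14.1 and 15.5 in Lat-M1, and 41.8 and 39.7 in Lat-M2 and ITGAM at 1.36, 1.84 and 1.71 TPM in PA, 4.74 and 4.74 in Lat-M1, and 2.54 and 2.21 in Lat-M2 (limma adjusted p = 0.248 and 0.242). Their part in these counts was not tested. The threshold was missed by CD55 when any 1 of the 7 libraries was left out (limma adjusted p up to 0.179).

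**Figure D3:**
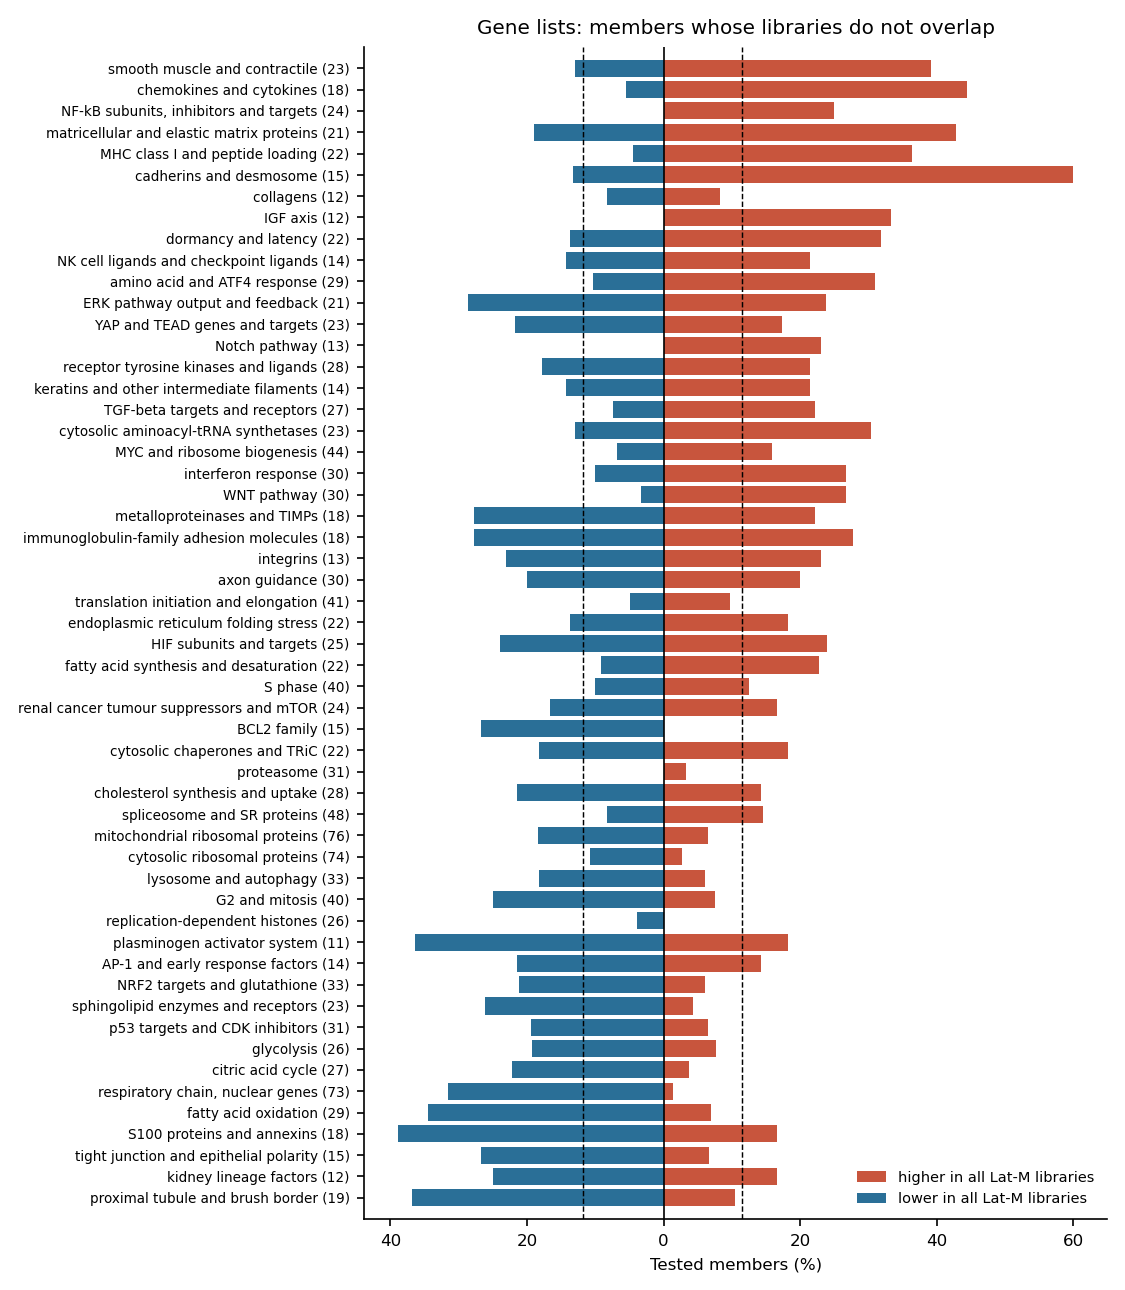
Percent of the tested members of each gene list (number of tested members in parentheses) that were higher (red, right) or lower (blue, left) in all Lat-M libraries than in all PA libraries. Dashed lines mark the shares of all tested genes, 11.4% higher and 11.8% lower, and the longest red bar is that of cadherins and desmosome proteins, 9 of 15. Protein-coding genes alone had shares of 13.9% and 14%. All values are scaled, and without scaling 4231 of all tested genes were higher and 531 lower.

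Growth factor receptors changed in both directions. Of 28 receptor tyrosine kinases and ligands, 6 were higher and 5 lower (10 and 2 without scaling; median 0.13, with 0.10 in Lat-M1 and -0.02 in Lat-M2). FGFR4 rose and FGFR1 fell. FGFR4 stood at 43.1, 59.8 and 54.7 TPM in PA, 118 and 122 in Lat-M1, and 102 and 92.7 in Lat-M2 (0.87 ± 0.13; limma adjusted p = 0.0362), and FGFR1 at 26.9, 27.9 and 28.5 TPM in PA, 21.6 and 21.9 in Lat-M1, and 24.8 and 23.1 in Lat-M2 (-0.43 ± 0.066; limma adjusted p = 0.0364, and 0.0857 without scaling). AXL and MET lay below PA, and INSR, EPHB4, TYRO3 and VEGFA above it. Of 12 genes of the insulin-like growth factor axis, 4 were higher and none lower (6 and none without scaling; median 0.32), namely PAPPA2, INSR, IRS1 and IGFBP2. That median was 0.65 in Lat-M1 and 0.01 in Lat-M2. FOSL1, an AP-1 subunit induced by ERK, stood at 28.2, 29.4 and 33.4 TPM in PA, 21.4 and 25 in Lat-M1, and 23.2 and 20.4 in Lat-M2 (-0.58 ± 0.068; limma adjusted p = 0.0175, and 0.0641 without scaling). PLXND1, a semaphorin receptor, stood at 6.18, 8.04 and 7.67 TPM in PA, 28.1 and 30.0 in Lat-M1, and 18.4 and 17.8 in Lat-M2 (1.38 ± 0.20; limma adjusted p = 0.0346). All 4 Lat-M libraries lay on one side of PA in each of these 4 called genes, with the larger difference from PA in Lat-M1 except for FOSL1. These calls were lost for FGFR4 and FGFR1 when any 1 of the 7 libraries was left out (limma adjusted p up to 0.179 and 0.19), PLXND1 when any 1 PA library, either Lat-M1 library or Lat-M 2-2 was left out (adjusted p up to 0.182), and FOSL1 when any 1 PA library or Lat-M 1-1 was left out (adjusted p up to 0.121).

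Most mitochondrial counts depended on the scaling for their direction. Of 73 nuclear genes of the respiratory chain, 23 were lower in all Lat-M libraries and 1, NDUFS7, was higher, with a median of -0.12 and none called by limma. Without scaling the count was 13 higher and 3 lower and the median 0.051, which was 0.096 below that of all genes. NDUFB2, a subunit of complex I, stood at 68.8, 72.8 and 70.6 TPM in PA, 52.5 and 56.6 in Lat-M1, and 69.1 and 60.9 in Lat-M2 (-0.41), and ATP5J2, of ATP synthase, at 166, 161 and 164 TPM in PA, 129 and 142 in Lat-M1, and 142 and 155 in Lat-M2 (-0.37). Of 29 genes of fatty acid oxidation, 10 were lower and 2 higher, which became 2 lower and 5 higher without scaling (median -0.16, and -0.01 without scaling). The list's median change was -0.43 in Lat-M1 and -0.0048 in Lat-M2. SLC25A20, the carnitine carrier of mitochondria, stood at 11.7, 9.51 and 10.1 TPM in PA, 2.91 and 1.93 in Lat-M1, and 7.27 and 6.79 in Lat-M2 (limma adjusted p = 0.166). ACADVL, an acyl-CoA dehydrogenase, stood at 124, 131 and 127 TPM in PA, 65.8 and 66.8 in Lat-M1, and 128 and 119.5 in Lat-M2. SLC25A20 was lower in every Lat-M library on the deposited scale too, while ACADVL overlapped PA there. Of 27 genes of the citric acid cycle, 6 were lower and 1 higher, which became 8 higher and none lower without scaling.

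Lipid and metal genes held several called members. ELOVL6, an elongase of fatty acids, stood at 0.423, 0.405 and 0.378 TPM in PA, 4.62 and 4.75 in Lat-M1, and 2.85 and 2.61 in Lat-M2 (1.63 ± 0.20; limma adjusted p = 0.022). NPC2, a lysosomal carrier of cholesterol, stood at 119.9, 122 and 119 TPM in PA, 65.6 and 69.4 in Lat-M1, and 95 and 83.4 in Lat-M2 (-0.79 ± 0.13; limma adjusted p = 0.0462, and 0.0529 without scaling). ELOVL6 and ACSL1 were the called members of 22 genes of fatty acid synthesis, of which 5 were higher and 2 lower (7 and 1 without scaling). ABCA1 and NPC2 were those of 28 genes of cholesterol metabolism, of which 4 were higher and 6 lower (11 and 2 without scaling). Of 5 metallothionein and zinc genes, 4 were lower and none higher (2 lower and 1 higher without scaling; median -0.44). MT1X, a metallothionein that binds zinc and copper, stood at 10.7, 9.23 and 11.9 TPM in PA, 5.52 and 4.92 in Lat-M1, and 7.05 and 6.19 in Lat-M2 (-0.89 ± 0.13; limma adjusted p = 0.0359). GPX3, a secreted glutathione peroxidase, stood at 1.22, 1.34 and 1.67 TPM in PA, 5.64 and 7.15 in Lat-M1, and 4.05 and 3.94 in Lat-M2 (1.22 ± 0.19; limma adjusted p = 0.041). PFKFB2, a regulator of glycolysis, rose by 0.88 on the log2 scale (limma adjusted p = 0.0362). Limma dropped GPX3, MT1X, PFKFB2 and ABCA1 when any 1 of the 7 libraries was left out (limma adjusted p up to 0.204, 0.19, 0.182 and 0.189), NPC2 when any 1 PA library, either Lat-M1 library or Lat-M 2-2 was left out (adjusted p up to 0.209), ELOVL6 when any 1 PA library or either Lat-M1 library was left out (adjusted p up to 0.135), and ACSL1 when PA3 was left out (adjusted p up to 0.0562).

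Proximal tubule and brush border genes had 7 of 19 members lower and 2, ANPEP and VIL1, higher, which became 3 lower and 3 higher without scaling (median -0.68). The list's median change was -1.80 in Lat-M1 and 0.03 in Lat-M2. SLC2A2, the glucose transporter GLUT2, stood at 71.4, 68.7 and 69.7 TPM in PA, 0.11 and 0.229 in Lat-M1, and 31.8 and 32.2 in Lat-M2 (limma adjusted p = 0.236), and ANPEP, an aminopeptidase of the brush border, at 51, 53.4 and 55.6 TPM in PA, 79.2 and 85.1 in Lat-M1, and 224 and 212 in Lat-M2 (limma adjusted p = 0.22). SLC2A2 was nearly absent from Lat-M1 alone, and ANPEP was highest in Lat-M2. Of 25 hypoxia-inducible factor genes and targets, 6 were higher and 6 lower (11 and 3 without scaling; median 0.04). BNIP3, a mitophagy receptor, stood at 34.2, 29.8 and 32.3 TPM in PA, 22.2 and 25.3 in Lat-M1, and 25.4 and 24.4 in Lat-M2 (-0.55 ± 0.071; limma adjusted p = 0.0235). EPAS1, which encodes HIF-2alpha, stood at 0.563, 0.406 and 0.548 TPM in PA, 3.01 and 2.98 in Lat-M1, and 1.09 and 1 in Lat-M2 (limma adjusted p = 0.211), and PLIN2, a lipid droplet protein, at 26.6, 28 and 27.1 TPM in PA, 1.57 and 1.21 in Lat-M1, and 17 and 16.1 in Lat-M2 (limma adjusted p = 0.225). EPAS1 lay above PA and PLIN2 and BNIP3 below it in all Lat-M libraries. Limma did not call BNIP3 when any 1 PA library, either Lat-M1 library or Lat-M 2-1 was left out (limma adjusted p up to 0.136).

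Cell cycle and growth genes had medians near that of all genes. Of 40 genes of G2 and mitosis, 10 were lower and 3 higher, with a median of -0.02, and the split became 14 higher and none lower without scaling. MKI67, a marker of cycling cells, stood at 90.0, 89 and 95.8 TPM in PA, 106 and 117 in Lat-M1, and 110.1 and 98.8 in Lat-M2, a log2 fold change of 0.07 (limma adjusted p = 0.47). Of 31 p53 targets and CDK inhibitors, 6 were lower and 2 higher, which became 2 lower and 5 higher without scaling. GDF15, a secreted stress cytokine, stood at 50.6, 60.1 and 57.8 TPM in PA, 32.8 and 37.1 in Lat-M1, and 42.9 and 41.1 in Lat-M2 (-0.70 ± 0.11; limma adjusted p = 0.038, and 0.0518 without scaling). PMAIP1, the apoptosis protein NOXA, fell by 0.40 on the log2 scale (limma adjusted p = 0.0423, and 0.1134 without scaling). Amino acid and ATF4 response genes had 9 of 29 higher and 3 lower (17 and 3 without scaling; median 0.18), with GPT2, an alanine transaminase, and SLC7A5, a transporter of large neutral amino acids, called (0.42 and 0.39; limma adjusted p = 0.0359 and 0.0408). Few members of some large complexes were separated from PA, with 1 of 31 proteasome genes, 1 of 26 replication-dependent histones and 10 of 74 cytosolic ribosomal proteins, against 11, 6 and 27 without scaling, all of them higher. Of all 16724 tested genes 23.2% were separated after scaling, and 4231 were higher and 531 lower without it. No call was made for PMAIP1, GPT2 and SLC7A5 when any 1 of the 7 libraries was left out (limma adjusted p up to 0.207, 0.19 and 0.188), and GDF15 when any 1 PA library, either Lat-M1 library or Lat-M 2-1 was left out (adjusted p up to 0.188).

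The genes without overlap were spread unevenly over the chromosomes. Of 11483 tested protein-coding genes, 13.9% were higher and 14% lower in all Lat-M libraries. On chromosome 15 the share of higher genes was 41.6% (154 of 370), on chromosome 5 it was 37.5% (200 of 534), on chromosome 12 it was 34.6% (218 of 630), on chromosome 16 it was 23% and on chromosome 3 it was 20.4%. Lower genes were most frequent on chromosomes 21 (28.7%), 7 (26.1%, 141 of 540), 20 (25.5%), 14 (20.8%) and X (20.6%). Without scaling the share of higher genes was 66.5% on chromosome 15, 58.7% on 12 and 58.2% on 5, beside 31.4% of all. The share of lower genes on chromosome 7 was then 6.67% beside 3.2% of all. These shares are a description, because genes of one chromosome are not independent of each other.

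**Figure D4:**
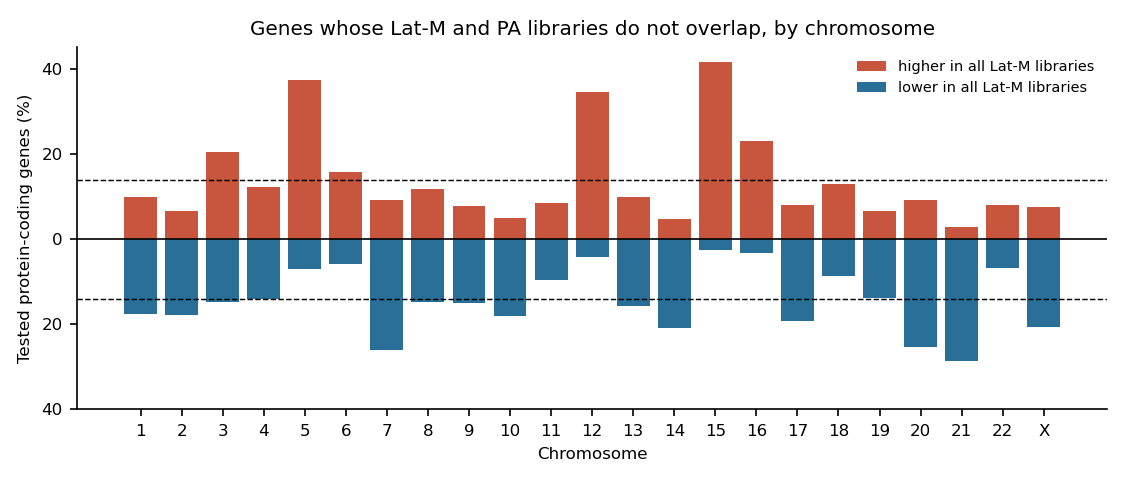
Percent of tested protein-coding genes of each chromosome that were higher (red, above 0) or lower (blue, below 0) in all Lat-M libraries than in all PA libraries. Dashed lines mark the shares of all tested protein-coding genes, 13.9% and 14%, and the red bars of chromosomes 5, 12 and 15 stand above 34%.

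Along chromosome 5 the higher genes lay mainly at one end. Windows of 40 neighbouring protein-coding genes in which at least 50% were higher joined into a stretch from C5orf63 to TRIM52. Of its 265 genes, 168 (63.4%) were higher and 8 lower in all Lat-M libraries, beside 32 of the other 269 genes of the chromosome (11.9%). The median change was 0.40 in Lat-M1 and 0.19 in Lat-M2. The middle 50% of the genes had log2 fold changes of 0.19 to 0.39. Limma called 10 of the 265, SPARC, CD74, FGFR4, GPX3, NOP16 and SEC24A among them. Leaving out each library in turn gave 64.5% to 69.8%, and no scaling gave 80.0%. All tested protein-coding genes had 13.9%, and then 14.95% to 17.94% and 31.4%. Fewer libraries make the rule easier to meet, so the values without a library could not test the stretch. The windows were defined after the shares by chromosome had been seen, and no other window was tried. Because the stretch was drawn from these same values, its excess over the rest of the chromosome follows in part from that choice.

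Single genes of the chromosome 5 stretch show the size of these differences. HARS, the histidyl-tRNA synthetase, stood at 26.7, 26.6 and 26.3 TPM in PA, 46.1 and 47.9 in Lat-M1, and 34 and 31.2 in Lat-M2, and RARS, the arginyl-tRNA synthetase, at 149.6, 132 and 142 TPM in PA, 223 and 235 in Lat-M1, and 199.6 and 174 in Lat-M2. HSPA9, the mitochondrial chaperone mortalin, stood at 371, 355 and 366 TPM in PA, 534 and 551 in Lat-M1, and 499 and 435 in Lat-M2, and HSPA4, a cytosolic chaperone, at 203, 193 and 201 TPM in PA, 251 and 256 in Lat-M1, and 291 and 238 in Lat-M2. These 4 lay above PA in all Lat-M libraries by 0.38, 0.38, 0.30 and 0.21 on the log2 scale, and none was called by limma (adjusted p = 0.248, 0.119, 0.116 and 0.166). NOP16, a ribosome assembly factor, stood at 34.4, 34.9 and 35.9 TPM in PA, 54.9 and 56.7 in Lat-M1, and 50.8 and 47.1 in Lat-M2 (0.40 ± 0.064; limma adjusted p = 0.0414). Without scaling 16 of 23 tRNA synthetases and 18 of 44 MYC and ribosome biogenesis genes were higher, beside 4231 of all 16724 tested genes. After scaling, of 7 higher tRNA synthetases, 4 lay in such stretches (HARS, LARS, MARS and RARS), as did 4 of 7 higher MYC and ribosome biogenesis genes and 4 of 9 higher matricellular genes. Counts of these lists therefore include genes whose neighbours were also higher, and a part played by position was not tested. The call was not kept by NOP16 when any 1 of the 7 libraries was left out (limma adjusted p up to 0.204).

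**Figure D5:**
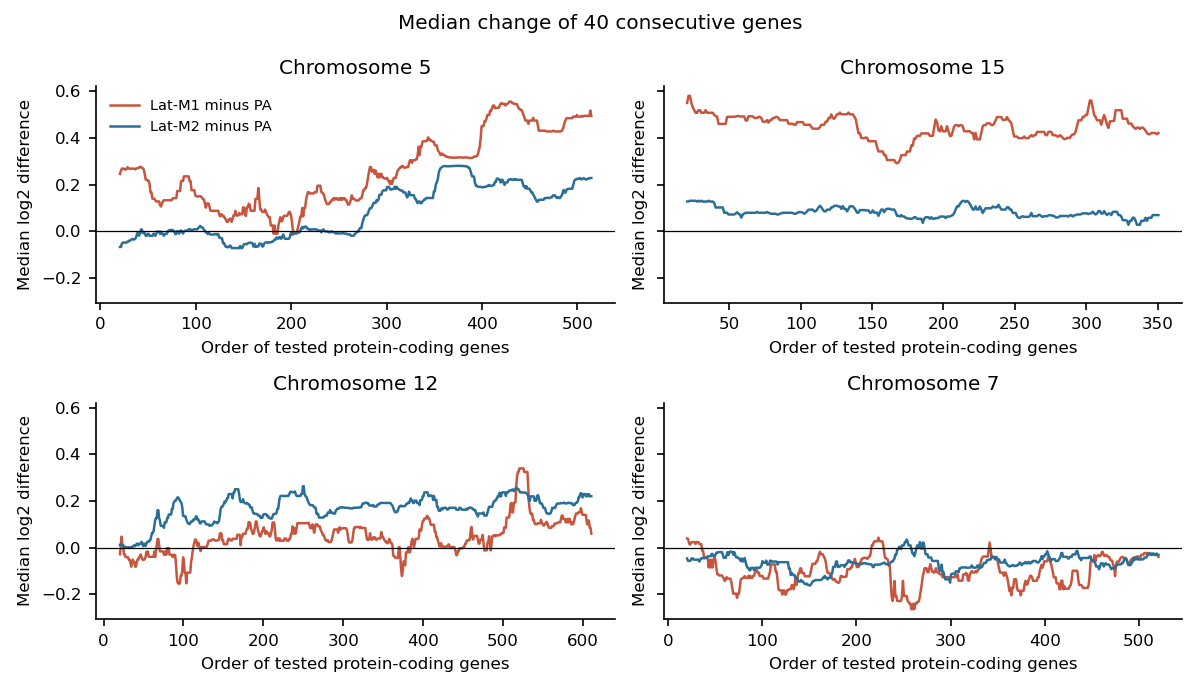
Median log2 difference from PA over 40 consecutive tested protein-coding genes, against gene order, on chromosomes 5, 15, 12 and 7, for Lat-M1 (red) and Lat-M2 (blue). Both lines rise in the second part of chromosome 5, the red line stays near 0.4 to 0.5 along most of chromosome 15 with the blue line near 0.1, and the blue line lies above the red one along most of chromosome 12.

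The other stretches were on chromosomes 3, 12 and 15. On chromosome 15, 4 stretches covered 203 genes, UBE3A to DNAJC17, ZSCAN29 to TCF12, SPG21 to LRRC49 and IREB2 to AP3S2, with 48.4% to 52.8% of genes higher and none lower. The median change over chromosome 15 was 0.46 in Lat-M1 and 0.08 in Lat-M2. On chromosome 12, 3 stretches (RAB5B to OS9, NAV3 to NEDD1 and ATXN2 to ULK1) had 50% to 61.1% higher, and here Lat-M2 had the larger median change, 0.17 beside 0.05 over the chromosome. On chromosome 3 the genes from H1FX to GYG1 had 28 of 58 higher. In all, the 9 stretches held 402 of the 1600 higher protein-coding genes (25.1%) and 722 of 11483 tested ones (6.29%). Stretches were defined by their share of higher genes, so an excess of such genes in them follows from the definition. The only stretch of lower genes, ZNF805 to UBE2M on chromosome 19, had 28 of 53 lower, and 7 of 53 without scaling. DNA copy number was not analysed here.

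Chromosome 7 held falls rather than a stretch. Of the 92 genes with an annotated chromosome that limma called lower, 11 lay on it (12%), beside 787 of 15750 tested genes (5%). Of the 20 falls named by size 6 did, namely PEG10, SGCE, AMZ1, LRRC61, AC002454.1 and ITGB8. The median change over the chromosome was -0.09 in Lat-M1 and -0.06 in Lat-M2.

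Genes without overlap were more often protein-coding than tested genes as a whole, and had similar length and GC content. Protein-coding genes made up 86.9% of the higher and 84.7% of the lower genes that had an annotation, and 72.9% of all tested genes. Their median transcript length was 1049 bases for the higher genes, 1048 for the lower and 1008 for all, and the median GC content was 48.8%, 48.4% and 49.2%. The median level was 13.6 TPM for the higher genes, 20.9 TPM for the lower and 12 TPM for all. Antisense genes and long intergenic RNAs had more lower than higher members, 70 and 37 of 716 and 70 and 39 of 616, and processed pseudogenes had more higher ones, 42 and 22 of 779. Antisense genes are uncertain, because strand is not given for the counting.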

How the data were processed

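The 7 libraries were grouped by their labels. Per the submitters' processing notes, TopHat2 2.2.4 and the build hg19 were used; roles, annotation and filters are not given in the sources used here. Per the labels, libraries were made with either of a pair of kits, without a statement of which one was used for a given library. The unit of the deposited files is taken to be TPM, because the values of each library sum to 1e+06. Values were divided by a median-ratio factor and taken as log2(TPM + 1). Genes averaging at least 1 TPM were fitted with limma 3.58.1 (R 4.3.3, trend and robust options; statmod 1.5.0) in a fit of 2 groups, with Benjamini-Hochberg adjustment at 0.05. Errors are standard errors, and the spread between libraries, on which the p-values rest, may be technical. Simulated data with independent noise in each library were used to test the fit. They could not show how the fit behaves where libraries of a Lat-M number resemble each other. Gene type, length, GC content and order came from GENCODE v29 (GRCh38), matched for 94.2% of tested genes, so no hg19 positions are given.

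The genes named were the 10 rises and 10 falls with the widest space between groups among limma calls of at least 2-fold with a higher-group mean of at least 5 TPM, the same under 2-fold, up to 4 members without overlap of each of 66 gene lists, and VHL, HIF1A, EPAS1, PAX8, MKI67, MYC and 4 structural RNAs. Further genes were named after their values were seen: those evenly changed, and examples from lists and stretches. A gene that this rule names is not reported here. The members and lists were chosen with earlier results of these data known. Of 1792 list genes, the files list no entry under the symbol of 67. Libraries that share a last number were not paired (correlation of deviations -0.076 to 0.018). Alternatives were no scaling, upper quartile scaling, a pseudocount of 0.1, no filter, a minimum mean of 5 TPM, leaving out each library, a space of at least 0.1, and fits with 3 groups, correlated repeats, averaged numbers, the last number as a block or plain limma.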

Additional observations from a re-analysis of the deposited data

Results flagged for a closer look

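TEAD2 was the only 1 of 40 genes named by size in which 1 Lat-M library stood apart from the others by Dixon's ratio. On the scaled log2(TPM + 1) values the ratio was 0.917 against a critical value of 0.829 for 4 samples. As deposited, the Lat-M2-1 library had 12.4 TPM and the others 15.3 to 16.7 TPM, and these unscaled levels do not give that ratio. Chance flags about 1 in 20 groups.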

How the results depend on the processing

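Limma's count of 209 genes became 485 without scaling, 127 without the filter on low values, 5704 with Lat-M1 and Lat-M2 as separate groups in a fit of 3 groups, 73 with duplicateCorrelation and 4 with the Lat-M numbers averaged (1936 at an unadjusted p under 0.05). It was 17 to 117 when each library was left out. With the last number as a replicate block limma called 0 genes, with 1384 at an unadjusted p under 0.05. Whether the last number pairs libraries could not be told. Upper quartile scaling, a pseudocount of 0.1, a minimum mean of 5 TPM and plain limma gave 185 to 195. The count of 3885 genes without overlap became 1764 with a space of at least 0.1, and lay between 3005 and 5187 under the other settings. The count of genes changed at least 2-fold in both numbers was 137, and 147 without scaling. No change of a named gene that limma called changed sign. Of the uncalled ones, log2 fold changes below 0 became 0.014 for VIM, 0.0297 for AIMP2, 0.0079 for EIF3I, 0.0115 for CDK1, 0.0348 for BCL2L1, 0.0325 for TSC1, 0.0715 for GABARAPL1 and 0.0364 for RMRP without scaling. Leaving out each library gave -0.0323 to 0.0423 for PAX8 and -0.289 to 0.03 for RMRP. Without read totals, neither counting intervals nor detection limits can be given.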
